A study of Mus musculus with 18 samples.

Results

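The autophagy and lysosome genes are a chosen list of 50 mouse genes whose products build the autophagosome, mark its cargo, or work in the membrane and lumen of the lysosome. They were found by gene symbol in the annotation of the array, not by a measured value. The list itself was chosen with earlier results of these data known, so its shares beside those of all genes are a description. A probe was named for 49 of the 50, the exception being Optn, the gene of the cargo receptor optineurin. At least 1 probe was detected on at least 1 array for 44 of them, and these 44 stand among 11195 named genes with a detected probe. The other 5 had probes that were detected on none of the 18 arrays. They were Rb1cc1, the scaffold of the ULK1 complex, the protease gene Atg4c, Atg5, whose product is joined to ATG12, the mitophagy receptor gene Bnip3, and Tfeb, a transcription factor of lysosomal genes. A gene was read from its brightest probe, and 69 of the 94 probes for the list were kept.

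Autophagy encloses cytoplasm in a double membrane and delivers it to the lysosome, where hydrolases break it down. It is started by the ULK1 kinase complex, nucleated by the class III PI3-kinase complex, extended by lipid supply through ATG9 and ATG2, and completed as ATG8-family proteins such as LC3 are joined to lipid. In cells that depend on a growth factor, removal of that factor lowers nutrient uptake, and autophagy is known to sustain such cells. The factors TFEB and TFE3 bind the CLEAR element in promoters of many lysosomal genes, and several autophagy genes are known targets of FOXO factors.

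The cells were factor-dependent myeloid (FDM) cells, mouse myeloid progenitors immortalized with HoxB8 that need interleukin-3 (IL-3). Both genotypes carried HoxB8, and the p53-/- cells lacked p53. RNA was taken from 3 independent clones per genotype after 0, 6 and 18 h without IL-3, so that each of the 6 groups held 3 arrays, and 0 h denotes cells still in IL-3. The labels give a replicate number and no clone, and arrays of one number and genotype are taken below as one clone. No probe of the targeted gene Trp53 carries its name in the annotation used, and the genotypes were taken here from the sample labels. From these arrays the study reported a lower level of the p53-dependent gene Cdkn1a in p53-/- cells. It also reported a higher signal of the Neomycin resistance cassette in them. Of 46632 probes, 27.0 to 34.0% were detected on an array. Levels are log2 intensities after background correction and quantile normalization. A gene was called when its Benjamini-Hochberg adjusted p from limma was at most 0.1 and its log odds of differential expression (B) was above 0. Adjusted p-values below are from that model, two-sided, and values in brackets after a log2 change are its standard error and adjusted p. The model weighted arrays by reliability, so a fitted change can differ from the difference of the plain means. Intensity follows RNA abundance per amount of labelled RNA, and fewer cells of a type and less RNA per cell cannot be told apart in it.

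One array stood apart. The third p53-/- array at 18 h had the lowest median intensity, the lowest share of probes detected, at 27.0%, and a weight of 0.0905, against weights of 0.467 to 4.34 on the other arrays. Of the 44 genes, 10 had their lowest and 12 their highest level of all 18 arrays on it, and no other array held over 8 such extremes. Lamp2, for a membrane protein of the lysosome, read 7.18 there and 11.29 to 12.98 elsewhere. The study's methods left out an array as an outlier without saying which, whereas all 18 were kept here with weights. For comparisons that involve p53-/- cells at 18 h, the number of called genes is therefore also given without the third array. Other values of that group include it unless stated.

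Defining markers of the labelled cell type were present, with Ptprc, Spi1, Cebpa, Myb, Mpo and Cd34 detected and Kit not detected at 0 h in either genotype. Markers of other blood cells differed between the genotypes at 0 h. A detected probe was found for 4 of 8 listed monocyte and macrophage markers, 5 of 6 of mast cells and basophils and 4 of 6 erythroid ones. The summed normalized intensity of 4 monocyte and macrophage markers was 200 to 909 on p53-/- arrays and 2290 to 3956 on WT arrays, with Cx3cr1 undetected in both genotypes and Ly86 undetected in p53-/- cells. That of 5 mast cell and basophil markers was 17401 to 27078 on p53-/- arrays and 32314 to 49135 on WT arrays. That of 4 erythroid markers was 6444 to 44552 on p53-/- arrays and 242 to 2624 on WT arrays, where Slc4a1 was undetected. The sums overlapped for 6 neutrophil markers, at 8798 to 12915 on p53-/- arrays, with Ltf and S100a8 undetected, and 6303 to 32995 on WT arrays, and for 4 megakaryocyte markers, at 8227 to 12363 on p53-/- arrays and 7936 to 9011 on WT arrays, with Gp9 undetected. Their part in the genotype differences described below was not tested.

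**Figure D1:**
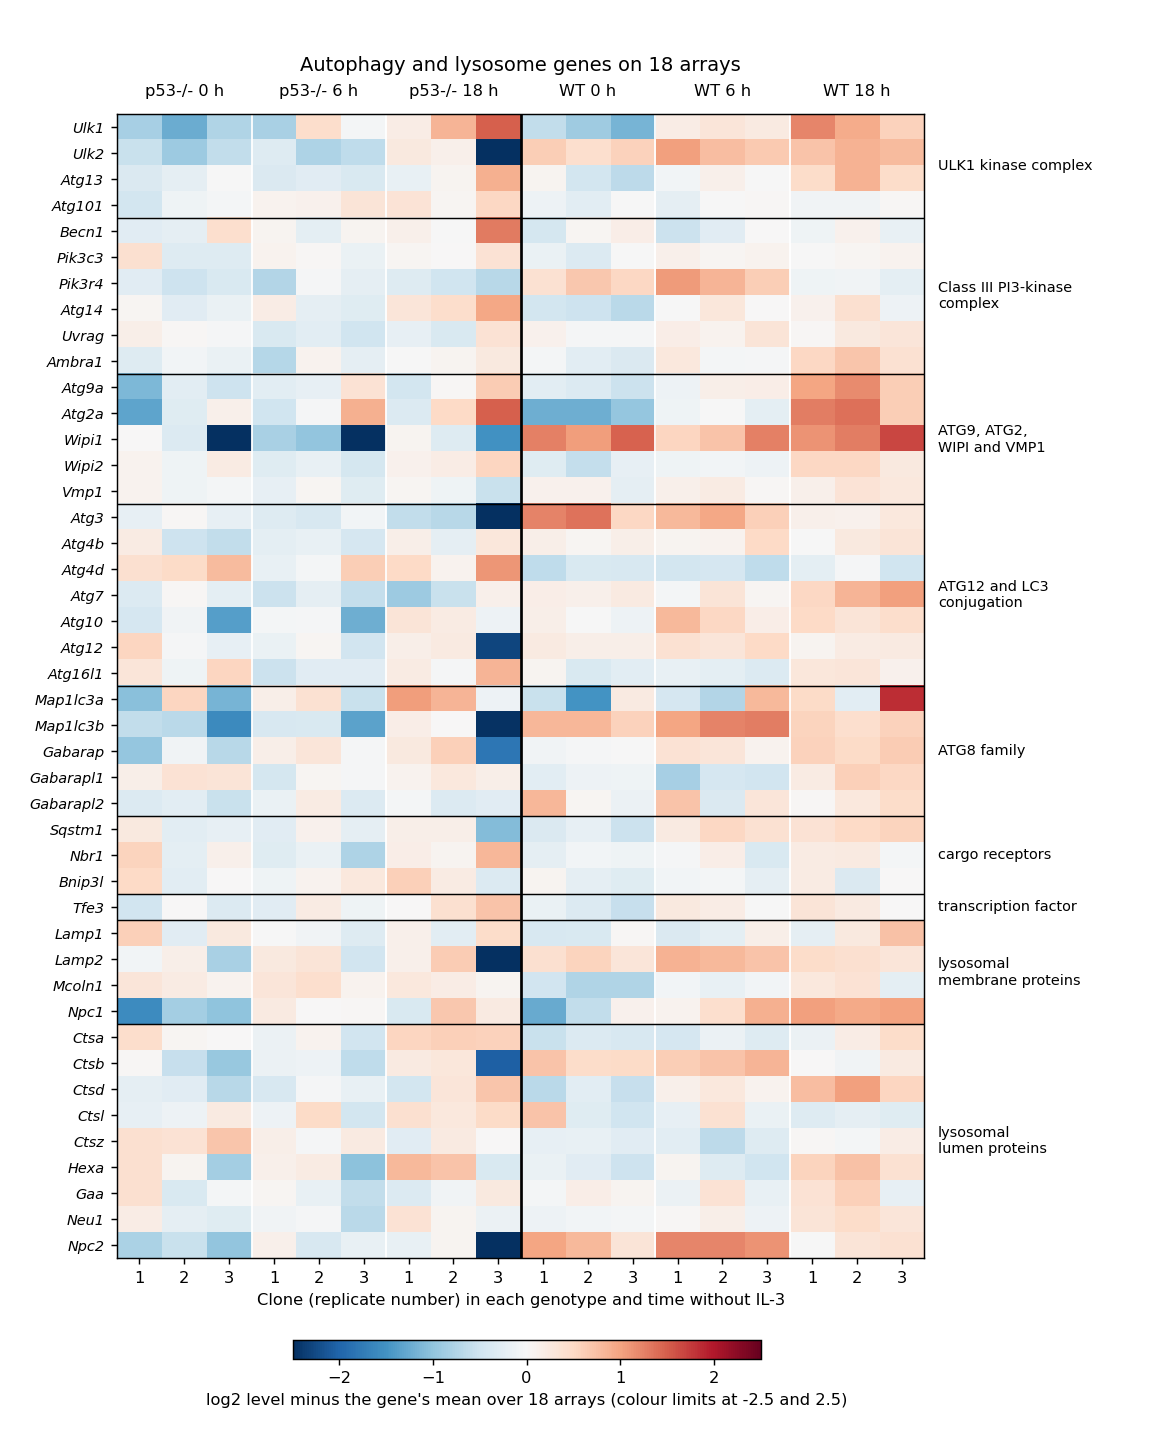
Level of each of the 44 detected autophagy and lysosome genes on the 18 arrays, as the log2 level minus the gene's own mean over all arrays (red above, blue below). Columns are clones 1 to 3 at 0, 6 and 18 h without IL-3, p53-/- cells left of WT cells, and rows are ordered by role. The third p53-/- array at 18 h holds 22 of the row extremes, and Ulk1, Atg2a and Atg9a darken to red over time in WT cells.

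Promoters of the list were searched for the letters of 3 known elements, as a description and without a test. A promoter window of 250 bases before to 50 bases after the start was available from RefSeq (GRCm38.p6) for 41 of the 50 genes, in 49 windows. The palindrome TCACGTGA, the core of the CLEAR element, lay in the windows of Atg3, Mcoln1, Ctsa and Ctsd, that is in 8.16% of the windows of the list and 0.974% of all 32851 windows. The shorter E-box CACGTG, which is contained in TCACGTGA and is also a palindrome, lay in windows of 11 of the genes, or 22.4% of the windows of the list and 7.15% of all windows. The forkhead element GTAAACA, searched on both strands, lay in 0 windows of the list and 3.65% of all windows. The 4 windows with the CLEAR core are shown because 3 of their genes were called in the comparisons below, not all in one direction. They are written 5′ to 3′ on the strand of the gene, with TCACGTGA in capitals. The windows are chr16:45158579-45158878 (plus strand) for Atg3, chr2:164833523-164833822 (plus strand) for Ctsa, chr7:142387778-142388077 (minus strand) for Ctsd and chr8:3500269-3500568 (plus strand) for Mcoln1.
Atg3: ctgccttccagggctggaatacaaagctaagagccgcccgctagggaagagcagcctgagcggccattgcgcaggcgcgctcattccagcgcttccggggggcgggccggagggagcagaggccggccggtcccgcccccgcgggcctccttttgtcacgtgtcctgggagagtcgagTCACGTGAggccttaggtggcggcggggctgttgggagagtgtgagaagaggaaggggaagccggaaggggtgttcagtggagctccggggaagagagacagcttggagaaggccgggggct
Ctsa: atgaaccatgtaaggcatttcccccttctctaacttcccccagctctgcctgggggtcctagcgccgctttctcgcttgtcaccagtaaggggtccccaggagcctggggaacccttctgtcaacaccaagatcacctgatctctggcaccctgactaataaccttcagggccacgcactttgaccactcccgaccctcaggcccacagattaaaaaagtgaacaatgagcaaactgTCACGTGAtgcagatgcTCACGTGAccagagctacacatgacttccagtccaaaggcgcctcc
Ctsd: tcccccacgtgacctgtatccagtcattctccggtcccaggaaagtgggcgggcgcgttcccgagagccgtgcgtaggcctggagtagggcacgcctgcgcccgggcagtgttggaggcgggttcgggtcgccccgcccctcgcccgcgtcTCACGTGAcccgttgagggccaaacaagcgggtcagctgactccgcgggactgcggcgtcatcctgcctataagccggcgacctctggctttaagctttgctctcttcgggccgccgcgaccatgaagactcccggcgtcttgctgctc
Mcoln1: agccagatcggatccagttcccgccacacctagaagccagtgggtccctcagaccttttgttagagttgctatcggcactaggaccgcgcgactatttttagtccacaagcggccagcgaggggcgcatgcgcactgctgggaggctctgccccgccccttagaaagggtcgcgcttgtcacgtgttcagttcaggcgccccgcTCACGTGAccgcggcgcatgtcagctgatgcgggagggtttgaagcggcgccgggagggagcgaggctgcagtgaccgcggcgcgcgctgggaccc

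The Ctsa window holds 2 copies of the element, and the others 1 each. With the annotated start as 0, the first base of the element lies at -72 in Atg3, -13 and 4 in Ctsa, -99 in Ctsd and -46 in Mcoln1. In WT cells the level of Atg3 was lower, and those of Mcoln1 and Ctsd higher, after 18 h than at 0 h, while Ctsa was not called in any comparison.

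After 18 h without IL-3, p53-/- cells had 0 of the 44 genes called against 0 h, where 3.92% of all named genes were, with 12 of the 44, or 27.3%, at an unadjusted p under 0.05, beside 23.6% of all named genes. Their median log2 change was 0.29, beside 0.02 over all named genes. WT cells had 12 of the 44 genes called over the same time, or 27.3%, where 18.2% of all named genes were called. Of the 12, 11 were higher (7.61% of all named genes were called higher) and 1 was lower (10.6% of all named genes). The genes that rose encode the ULK1 kinase and its partner ATG13, 2 regulators of the PI3-kinase complex, the lipid transfer protein ATG2A, the scramblase ATG9A, WIPI2, the cargo receptor p62, 2 lysosomal membrane proteins and cathepsin D. Atg3 fell. The median log2 change of the 44 genes was 0.38, beside -0.01 over all named genes, and 37 of the 44 changes were above 0. With the arrays scaled to a common median in place of quantile normalization, the median over all named genes was -0.09 and that of the list 0.20. The median standard error of the 44 genes was 0.26 in p53-/- cells and 0.17 in WT cells for this change. These counts do not show that the genotypes differ, which is tested further below.

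For p53-/- cells 0 genes of the list were called at 6 h against 0 h, where 1.65% of all named genes were, and 0 at 18 h against 6 h, where 1.60% were. At an unadjusted p under 0.05 there were 7 at 6 h against 0 h (15.9%, beside 17.5% of all named genes) and 8 at 18 h against 6 h (18.2%, beside 15.8%). At 6 h, 4 of the 44 genes were called higher than at 0 h in WT cells and 0 lower, or 9.09%, where 6.91% of all named genes were called, 2.65% higher and 4.26% lower. They were Ulk1, Atg14, Sqstm1 and Mcoln1, and all of them were also higher at 18 h. Each of these 4 calls at 6 h was lost without any 1 of the 6 WT arrays at 0 and 6 h, with median scaling and without array weights. Between 18 h and 6 h in WT cells, 3 genes rose and 1 fell, again 9.09%, where 8.15% of all named genes were called, 2.56% higher and 5.58% lower. Taken over both directions, these shares lie near those of all genes. Called higher alone were 9.09% of the list at 6 h against 0 h and 6.82% at 18 h against 6 h, or 4 and 3 genes. Over all named genes these shares were 2.65% and 2.56%. When each clone was set against itself, 18 of the 44 genes were higher in all 3 p53-/- clones at 18 h than at 0 h. That is a larger share than the 22.7% of all named genes, and 5 of the 44 were lower in all 3, a smaller share than the 19.5%. In the WT clones 28 of the 44 were higher, a larger share than the 29.4% of all named genes. There 4 of the 44 were lower, a smaller share than the 30%.

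The call rule and the clones both bear on these counts. By the adjusted p alone, without the condition on B, the genes that passed at 6 h against 0 h were 2 in p53-/- cells (6.30% of all named genes) and 14 in WT cells (23.3%). At 18 h against 6 h they were 1 in p53-/- cells (4.39%) and 20 in WT cells (26.6%), and at 18 h against 0 h 4 in p53-/- cells (14.0%) and 26 in WT cells (46.0%). With clone as a replicate block, which sets each clone against itself, the called genes at 6 h against 0 h were 1 in p53-/- cells (5.92% of all named genes) and 6 in WT cells (9.69%). At 18 h against 6 h they were 1 in p53-/- cells (3.96%) and 7 in WT cells (12.4%), and at 18 h against 0 h 3 in p53-/- cells (8.72%) and 17 in WT cells (25.2%). No gene called without the block lost its call with it. In the values as the authors normalized them, 17 of the 26 called gene changes were smaller by over 1.5 times and 0 larger. Atg2a then changed by 1.32, Ulk1 by 1.07 and Atg9a by 0.59 in WT cells at 18 h, all still called.

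**Figure D2:**
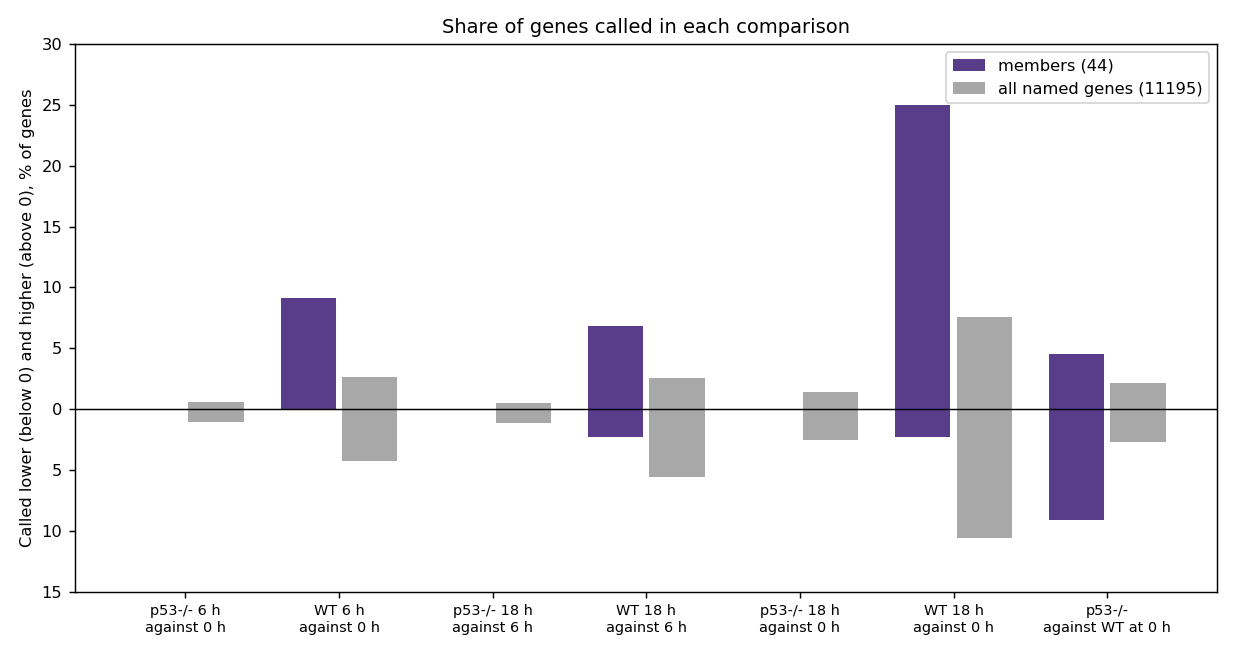
Share of the 44 autophagy and lysosome genes (violet) and of all 11195 named genes (grey) called higher (above 0) and lower (below 0) in each comparison, in percent. In WT cells at 18 h against 0 h, 11 of the 44 genes were called higher and 1 lower, and the 3 comparisons over time in p53-/- cells show 0 called genes of the list.

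Among the 4 detected genes of the ULK1 kinase complex, which starts autophagosome formation, Ulk1 and Atg13 rose in WT cells by 18 h. Ulk1, the kinase itself, read 8.01, 7.61 and 8.09 at 0 h, 8.05, 9.28 and 8.79 at 6 h and 9.03, 9.70 and 10.35 at 18 h in p53-/- cells, and 8.23, 7.96 and 7.69 at 0 h, 9.04, 9.15 and 9.08 at 6 h and 10.07, 9.78 and 9.44 at 18 h in WT cells. The 3 groups of WT arrays did not overlap, and all 3 p53-/- arrays at 18 h lay above all 3 at 0 h. The p53-/- change at 18 h was 1.52 (0.374, 0.0199), which was not called because B was below 0. With clone as a replicate block it was 1.48 (0.232, 0.000573) and was called. In WT cells the log2 change was 1.14 at 6 h (0.236, 0.00368) and 1.85 at 18 h (0.243, 2.2e-05), both against 0 h. In the authors' values the WT change at 6 h was 0.58 and not called. Atg13, for the subunit that ULK1 and the nutrient sensor mTORC1 phosphorylate, read 8.16, 8.29 and 8.51 at 0 h, 8.16, 8.24 and 8.14 at 6 h and 8.33, 8.59 and 9.41 at 18 h in p53-/- cells and 8.59, 8.05 and 7.87 at 0 h, 8.46, 8.65 and 8.51 at 6 h and 8.97, 9.38 and 8.97 at 18 h in WT cells. The change at 18 h was 0.18 in p53-/- cells (0.237, 0.75) and 1.13 in WT cells (0.154, 3.02e-05), where all arrays at 18 h were above all arrays at 0 h. The WT call for Atg13 was lost without the second WT array at 0 h (0.99) and without the second at 18 h (0.88). Ulk2, the second kinase of the pair, and Atg101, which stabilizes ATG13, were not called over time in either genotype, with changes at 18 h of 0.77 and 0.39 in p53-/- cells and of 0.36 and 0.14 in WT cells.

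Of the 6 genes of the class III PI3-kinase complex, which makes the lipid that recruits later factors, Atg14 and Ambra1 were higher at 18 h in WT cells and Pik3r4 changed at a low level. Atg14, the subunit that directs the complex to autophagy, read 7.66, 7.34 and 7.45 at 0 h, 7.79, 7.39 and 7.31 at 6 h and 7.92, 8.06 and 8.57 at 18 h in p53-/- cells and 7.16, 7.10 and 6.95 at 0 h, 7.61, 7.89 and 7.63 at 6 h and 7.72, 8.01 and 7.49 at 18 h in WT cells. The p53-/- change at 18 h was 0.53 (0.223, 0.164), without overlap between the groups. The WT arrays at 6 and 18 h were all above those at 0 h, with changes of 0.66 at 6 h (0.141, 0.00446) and 0.78 at 18 h (0.145, 0.000485). Ambra1, a regulator that binds Beclin 1, read 8.24, 8.49 and 8.38 at 0 h, 7.84, 8.64 and 8.34 at 6 h and 8.54, 8.63 and 8.80 at 18 h in p53-/- cells and 8.52, 8.29 and 8.20 at 0 h, 8.83, 8.52 and 8.53 at 6 h and 9.07, 9.26 and 8.94 at 18 h in WT cells. Its change at 18 h was 0.22 in p53-/- cells (0.256, 0.702) and 0.86 in WT cells (0.167, 0.000667), and leaving out any 1 of the 6 WT arrays at 0 and 18 h ended that call, with changes of 0.69 to 0.92. Atg14 at 18 h was not called with the second (0.81) or the third (0.74) WT array at 0 h left out, nor with the first (0.67) or the second (0.52) at 18 h left out. Pik3r4, the regulatory kinase-like subunit, read 5.08, 4.85 and 4.98 at 0 h, 4.64, 5.35 and 5.15 at 6 h and 5.05, 4.86 and 4.68 at 18 h in p53-/- cells and 5.74, 6.03 and 5.89 at 0 h, 6.44, 6.21 and 5.97 at 6 h and 5.27, 5.27 and 5.13 at 18 h in WT cells. It was undetected on all 3 WT arrays at 18 h and was at least 1.5-fold lower there than at 6 h (adjusted p = 0.000745). This call was lost without the first WT array at 6 h (-0.84) or the second at 18 h (-1.03), and without background correction the change was -0.32. Becn1, Pik3c3 and Uvrag, for Beclin 1, the lipid kinase and its endosomal partner, stayed within changes of -0.38 to 0.35 in all 6 comparisons over time, and none was called.

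Of the 5 genes for factors that bring membrane and lipid to the growing autophagosome, Atg2a, Atg9a and Wipi2 rose in WT cells by 18 h. Atg2a, for a protein that transfers lipid into the growing membrane, read 7.32, 8.32 and 8.76 at 0 h, 8.14, 8.60 and 9.51 at 6 h and 8.29, 9.12 and 10.12 at 18 h in p53-/- cells and 7.40, 7.40 and 7.67 at 0 h, 8.52, 8.63 and 8.39 at 6 h and 9.92, 10.02 and 9.26 at 18 h in WT cells. The spread among p53-/- clones at 0 h, 7.32 to 8.76, was wider than the whole WT range at that time, and the p53-/- groups overlapped. In WT cells the 3 times did not overlap, with the level higher at each later time. Its log2 change at 18 h was 0.62 in p53-/- cells (0.397, 0.403) and 2.44 in WT cells (0.259, 3.02e-06), a 5.44-fold rise. The second probe of the gene gave 2.39 in WT cells (adjusted p = 2.77e-06). Atg9a, for the scramblase that travels in vesicles to the forming membrane, read 6.52, 7.39 and 7.13 at 0 h, 7.38, 7.45 and 8.01 at 6 h and 7.20, 7.67 and 8.27 at 18 h in p53-/- cells and 7.39, 7.30 and 7.10 at 0 h, 7.52, 7.80 and 7.82 at 6 h and 8.62, 8.82 and 8.27 at 18 h in WT cells. The p53-/- change at 18 h against 0 h was 0.45 (0.265, 0.349). All WT arrays at 18 h were above all earlier WT arrays, with a change of 1.42 against 0 h (0.173, 1.09e-05) and 0.98 against 6 h (0.181, 0.00139). A second Atg9a probe, near background, read -0.17 for the WT change at 18 h and was not called. Between 18 h and 6 h in WT cells Atg2a rose by 1.35 (0.271, 0.00249). These later rises were not called without some single arrays, for Atg9a the first WT array at 6 h (0.89) or the first or the second at 18 h (0.82 and 0.73), and for Atg2a any 1 of the WT arrays at 6 h (1.32 to 1.43) or the first or the second at 18 h (1.09 and 1.04).

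Wipi2, which encodes a reader of the PI3-kinase lipid, read 8.36, 8.18 and 8.48 at 0 h, 7.98, 8.09 and 7.83 at 6 h and 8.39, 8.47 and 8.82 at 18 h in p53-/- cells and 7.98, 7.69 and 8.07 at 0 h, 8.16, 8.21 and 8.16 at 6 h and 8.79, 8.79 and 8.53 at 18 h in WT cells. The change at 18 h against 0 h was 0.10 in p53-/- cells (0.186, 0.829) and 0.97 in WT cells (0.121, 1.36e-05), whose arrays at 18 h, 8.53 to 8.79, lay above all earlier WT arrays. The WT call was lost without the second WT array at 0 h (0.73). A dimmer Wipi2 probe, detected on all 18 arrays, gave -0.31 in p53-/- cells (0.332, 0.668) and 0.46 in WT cells (0.216, 0.106) and was not called. Wipi1, another lipid reader, was not called over time, and its genotype difference is given below. Vmp1, for an ER protein needed to close the membrane, had a change of 0.22 in WT cells at 18 h by its brightest probe (0.123, 0.168). A pair of dimmer probes of the same gene were called lower there, at -1.05 (0.192, 0.000427) and -1.21 (0.254, 0.00128), so its direction depends on the probe.

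Among 7 detected genes of the ATG12 and LC3 conjugation steps, which attach ATG8 proteins to lipid, 1 changed in WT cells and it fell. Atg3, for the enzyme that transfers LC3 to lipid, read 8.91, 9.14 and 8.90 at 0 h, 8.79, 8.72 and 9.04 at 6 h and 8.50, 8.42 and 5.64 at 18 h in p53-/- cells and 10.35, 10.46 and 9.62 at 0 h, 9.92, 10.08 and 9.72 at 6 h and 9.23, 9.21 and 9.38 at 18 h in WT cells. Its change at 18 h in p53-/- cells was -0.62 (0.318, 0.272), and the third array read 5.64 beside 8.50 and 8.42 for the other clones. All WT arrays at 18 h lay below all WT arrays at 0 h and 6 h, with a change of -1.08 (0.208, 0.000624) against 0 h. The WT call was lost without the first or the second WT array at 0 h (-0.80 and -0.74) or any 1 of those at 18 h (-1.03, -1.01 and -1.10). Atg7, the enzyme that activates both conjugation systems, read 7.05, 7.41 and 7.14 at 0 h, 6.86, 7.16 and 6.80 at 6 h and 6.48, 6.83 and 7.51 at 18 h in p53-/- cells and 7.55, 7.53 and 7.62 at 0 h, 7.35, 7.72 and 7.44 at 6 h and 7.91, 8.25 and 8.41 at 18 h in WT cells. The p53-/- change at 18 h was -0.51 (0.227, 0.195). The WT arrays at 18 h were the highest of the WT arrays, with a change of 0.65 (0.148, 0.0025) that missed the condition on B and was called with clone as a replicate block (0.67, adjusted p = 0.000652). Atg4b, Atg4d, Atg10, Atg12 and Atg16l1 were not called over time. Their changes at 18 h by the brightest probes lay between -0.25 and 0.89 in p53-/- cells and between 0.02 and 0.58 in WT cells. A dimmer Atg10 probe read 8.20, 7.96 and 7.31 at 0 h and 6.87, 6.95 and 7.65 at 18 h in WT cells. It was lower in the first and second clones, whereas the brightest was higher in all 3.

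The ATG8 family, the proteins that coat the autophagosome membrane and hold cargo receptors, had 1 call over time. Gabarapl1 read 10.80, 11.02 and 10.98 at 0 h, 10.22, 10.71 and 10.63 at 6 h and 10.76, 10.93 and 10.80 at 18 h in p53-/- cells and 10.39, 10.53 and 10.55 at 0 h, 9.83, 10.24 and 10.18 at 6 h and 10.86, 11.25 and 11.17 at 18 h in WT cells. In WT cells its level was lower at 6 h than at 0 h without passing the test (-0.41, adjusted p = 0.0602) and higher at 18 h than at 6 h by 1.04 (0.154, 0.000237), with no overlap between any of the WT groups. This call was lost without the second WT array at 18 h (0.91). Map1lc3b, for LC3B, the usual marker protein of autophagosomes, read 9.44, 9.38 and 8.45 at 0 h, 9.65, 9.67 and 8.71 at 6 h and 10.21, 10.06 and 7.59 at 18 h in p53-/- cells and 10.88, 10.88 and 10.64 at 0 h, 11.04, 11.30 and 11.34 at 6 h and 10.61, 10.47 and 10.63 at 18 h in WT cells. Its change at 18 h was 0.97 in p53-/- cells (0.325, 0.0785), where the groups overlapped through the third array, and -0.32 in WT cells (0.212, 0.254). The WT level was lower at 18 h than at 6 h, at -0.70 (0.222, 0.0339), called only with the replicate block (-0.73, adjusted p = 0.0018). Map1lc3a, for LC3A, read 8.18, 9.74 and 8.05 at 0 h, 9.37, 9.60 and 8.66 at 6 h and 10.26, 10.07 and 9.09 at 18 h in p53-/- cells and 8.65, 7.72 and 9.44 at 0 h, 8.79, 8.48 and 10.03 at 6 h and 9.68, 8.96 and 11.06 at 18 h in WT cells, a spread between clones wider than its change over time. With clone as a replicate block its change at 18 h was called in both genotypes, at 1.40 in p53-/- cells (0.257, 0.00162) and 1.25 in WT cells (0.188, 7.1e-05), whereas without the block it was 1.46 in p53-/- cells (0.704, 0.239) and 1.32 in WT cells (0.459, 0.031) and was not called. A dimmer Map1lc3a probe, detected on all 18 arrays, did not rise in every clone from 0 h to 18 h. It went from 7.25 to 7.16 in the first WT clone and from 6.89 to 6.55 in the third p53-/- clone, and was higher at 18 h in the other clones. Gabarap reached 0.93 in p53-/- cells and 0.55 in WT cells at 18 h without a call. Gabarapl2 was detected on 2 of 18 arrays and gave no usable change.

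Of the cargo receptors, which tie ubiquitinated or damaged material to ATG8 proteins, Sqstm1 rose in WT cells. Sqstm1, the gene of p62, read 13.10, 12.59 and 12.65 at 0 h, 12.56, 12.96 and 12.63 at 6 h and 13.00, 12.99 and 11.76 at 18 h in p53-/- cells and 12.49, 12.64 and 12.31 at 0 h, 13.07, 13.37 and 13.22 at 6 h and 13.22, 13.35 and 13.40 at 18 h in WT cells. The p53-/- changes were -0.02 at 6 h and 0.18 at 18 h (adjusted p = 0.981 and 0.727). All WT arrays at 6 and 18 h lay above those at 0 h, with changes of 0.67 at 6 h (0.143, 0.00453) and 0.75 at 18 h (0.148, 0.00076). The rise at 18 h was not called when the second (0.92) or the third (0.75) WT array at 0 h or any 1 of those at 18 h (0.71 to 0.80) was left out. Nbr1 and the mitophagy receptor gene Bnip3l were not called, with changes of 0.00 and 0.29 in p53-/- cells and 0.28 and 0.02 in WT cells at 18 h. A dimmer Nbr1 probe was lower at 18 h than at 0 h in the first and second WT clones and higher in the third. Tfe3, the detected gene of the transcription factor pair, had a log2 change of 0.50 in p53-/- cells (0.229, 0.207) and one of 0.58 in WT cells (0.149, 0.00581) at 18 h. It was called in WT cells only with the replicate block (0.56, adjusted p = 0.000692).

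**Figure D3:**
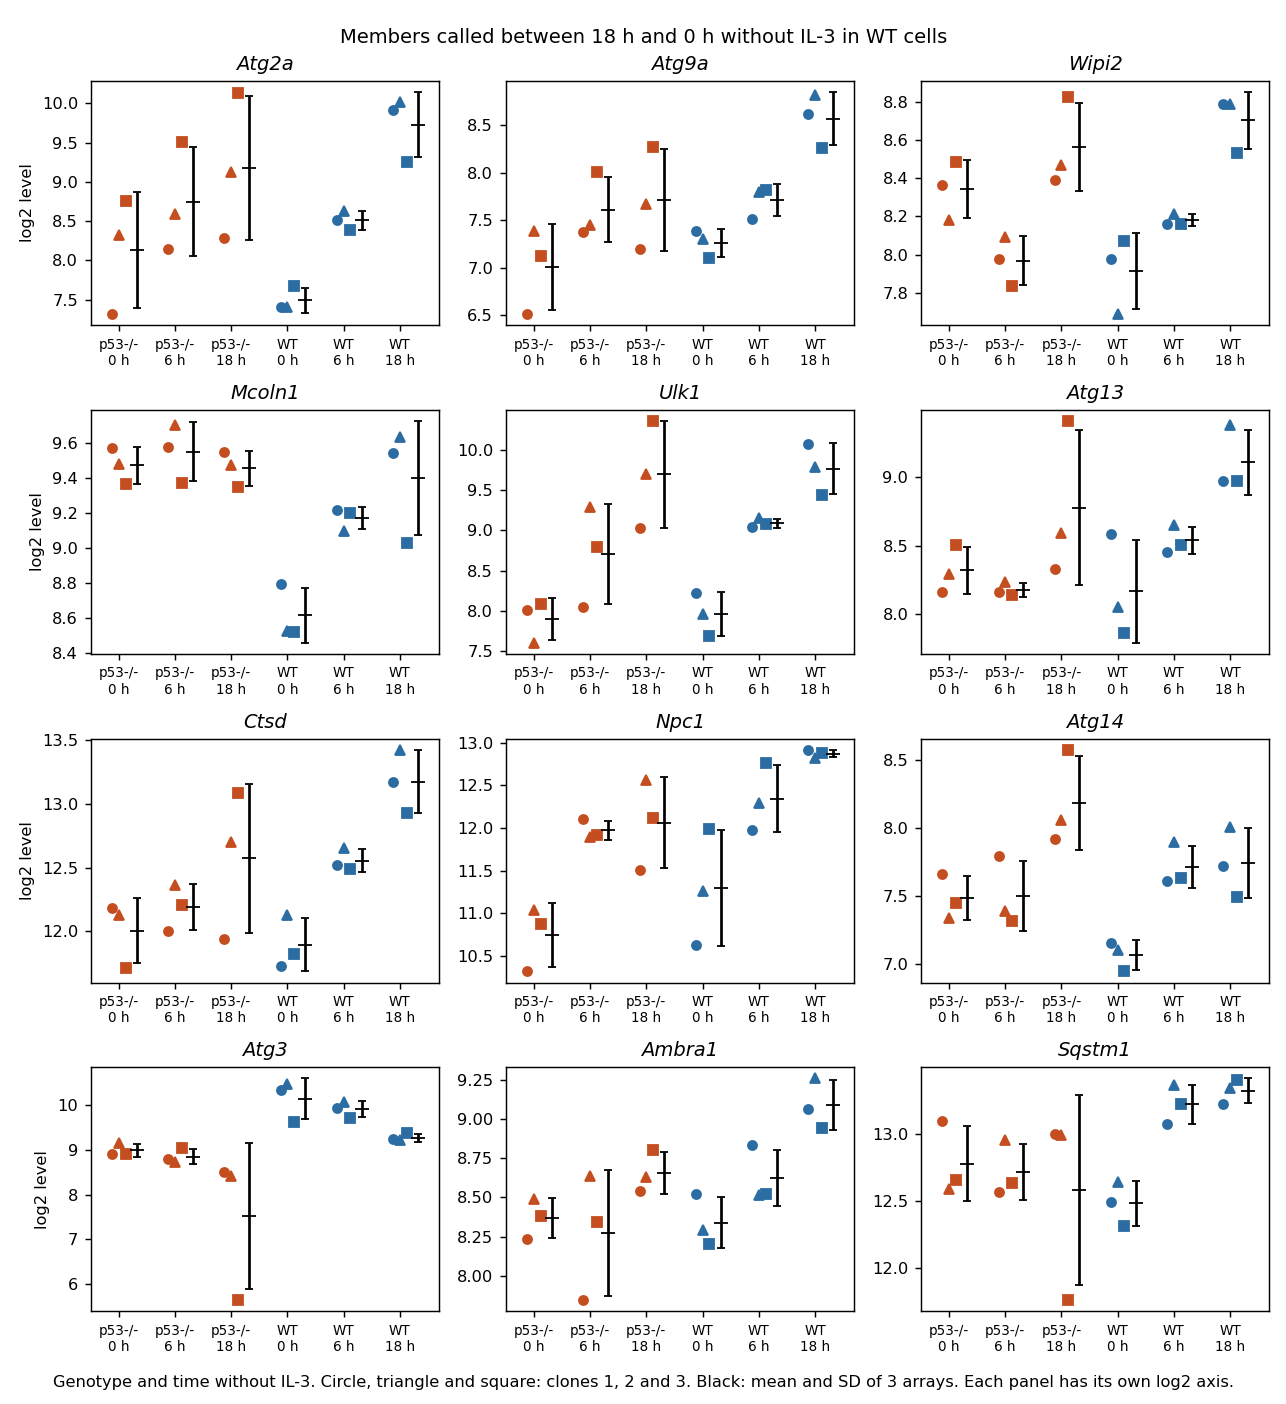
Log2 level of the 12 genes called between 18 h and 0 h in WT cells, on every array, p53-/- cells (orange) left of WT cells (blue) and time from 0 to 18 h within each. Circles, triangles and squares are clones 1, 2 and 3, and black marks give the mean and SD of 3 arrays. The WT mean at 18 h is above that at 0 h in every panel but Atg3, and the third p53-/- clone at 18 h lies far below the others for Atg3 and Sqstm1.

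For the lysosome, the genes of 2 of 4 membrane proteins and 1 of 9 lumen proteins rose in WT cells at 18 h. Mcoln1, for a calcium channel of the lysosomal membrane, read 9.57, 9.48 and 9.36 at 0 h, 9.57, 9.70 and 9.37 at 6 h and 9.54, 9.47 and 9.35 at 18 h in p53-/- cells and 8.79, 8.53 and 8.52 at 0 h, 9.21, 9.10 and 9.20 at 6 h and 9.54, 9.63 and 9.03 at 18 h in WT cells. The p53-/- arrays stayed between 9.35 and 9.70 at all 3 times. The WT arrays at 6 h and 18 h were all above those at 0 h, with changes of 0.60 at 6 h (0.122, 0.00356) and 0.96 at 18 h (0.126, 2.07e-05). Npc1, for the cholesterol exporter of the lysosome, read 10.32, 11.04 and 10.88 at 0 h, 12.11, 11.90 and 11.91 at 6 h and 11.51, 12.56 and 12.12 at 18 h in p53-/- cells and 10.62, 11.26 and 11.99 at 0 h, 11.98, 12.29 and 12.77 at 6 h and 12.91, 12.82 and 12.88 at 18 h in WT cells. It was higher at 18 h in both genotypes without overlap. The change was 1.32 in p53-/- cells (0.38, 0.0413), not called, and 1.57 in WT cells (0.248, 0.000115), called. At 6 h it was 1.23 in p53-/- cells (0.356, 0.0707) and 1.02 in WT cells (0.24, 0.00868), and both were called with the replicate block, at 1.20 (0.236, 0.00345) in p53-/- cells and 1.05 (0.192, 0.00132) in WT cells. A second Npc1 probe ran the other way in WT cells, at -0.91 (0.288, 0.0198) without overlap between 18 h and 0 h and without a call, so the direction of Npc1 depends on the probe. At 18 h the WT calls for Mcoln1 were lost without the first or the second WT array at 18 h (0.77 and 0.72), and for Npc1 without the first or the second WT array at 0 h (1.23 and 1.55) or the second at 18 h (1.61). Lamp1 and Lamp2, for the most abundant membrane glycoproteins of the lysosome, were not called by their brightest probes. A dimmer Lamp2 probe, detected on all 18 arrays, read 10.77, 10.66 and 10.62 at 0 h and 9.96, 10.28 and 10.16 at 18 h in WT cells. The groups did not overlap, whereas the change of the brightest Lamp2 probe was -0.09. Lamp1 read 13.96, 13.09 and 13.61 at 0 h, 13.36, 13.28 and 13.04 at 6 h and 13.48, 13.11 and 13.82 at 18 h in p53-/- cells and 12.97, 12.99 and 13.39 at 0 h, 13.00, 13.13 and 13.51 at 6 h and 13.13, 13.61 and 14.10 at 18 h in WT cells, with changes at 18 h of -0.24 in p53-/- cells (0.286, 0.715) and 0.51 in WT cells (0.187, 0.0385).

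Ctsd, for the aspartic protease cathepsin D, read 12.18, 12.12 and 11.71 at 0 h, 12.00, 12.37 and 12.21 at 6 h and 11.94, 12.70 and 13.08 at 18 h in p53-/- cells and 11.73, 12.13 and 11.82 at 0 h, 12.52, 12.66 and 12.49 at 6 h and 13.17, 13.43 and 12.93 at 18 h in WT cells. The change of Ctsd at 18 h was 0.37 in p53-/- cells (0.273, 0.485), with the first clone lower and the other two higher than at 0 h. The 3 WT groups did not overlap, and the change at 18 h was 1.26 (0.178, 4.13e-05), a 2.4-fold rise. The WT call was lost without the second WT array at 18 h (1.02). Ctsb and Npc2, for a cysteine cathepsin and a cholesterol carrier, moved the other way in WT cells without a call, at -0.51 (adjusted p = 0.0337) and -0.51 (adjusted p = 0.0826) against 0 h. A second Ctsb probe, detected on all 18 arrays, was higher in WT cells at 18 h, at 0.66 (0.254, 0.0511) without overlap or a call, so the direction of Ctsb depends on the probe. By the brightest probes they were lower at 18 h than at 6 h, at -0.74 (0.19, 0.0112) and -0.94 (0.234, 0.00932), which were called once the third p53-/- array at 18 h was left out of the fit (-0.74 and -0.94, adjusted p = 0.00374 and 0.00125). Hexa, a subunit gene of hexosaminidase, had a change of 0.86 in p53-/- cells (0.334, 0.132) and of 0.94 in WT cells (0.218, 0.00269) at 18 h, called in WT cells only with the replicate block (0.95, adjusted p = 2.1e-05). The brightest probe of the sialidase gene Neu1 was not called (0.48 in WT cells, adjusted p = 0.00935), and a dimmer probe was, at 1.57 (0.164, 2.75e-06). Ctsa, Ctsl, Ctsz and Gaa, for further hydrolases, were not called, with changes at 18 h of -0.50 to 0.41 in p53-/- cells and -0.07 to 0.52 in WT cells.

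**Figure D4:**
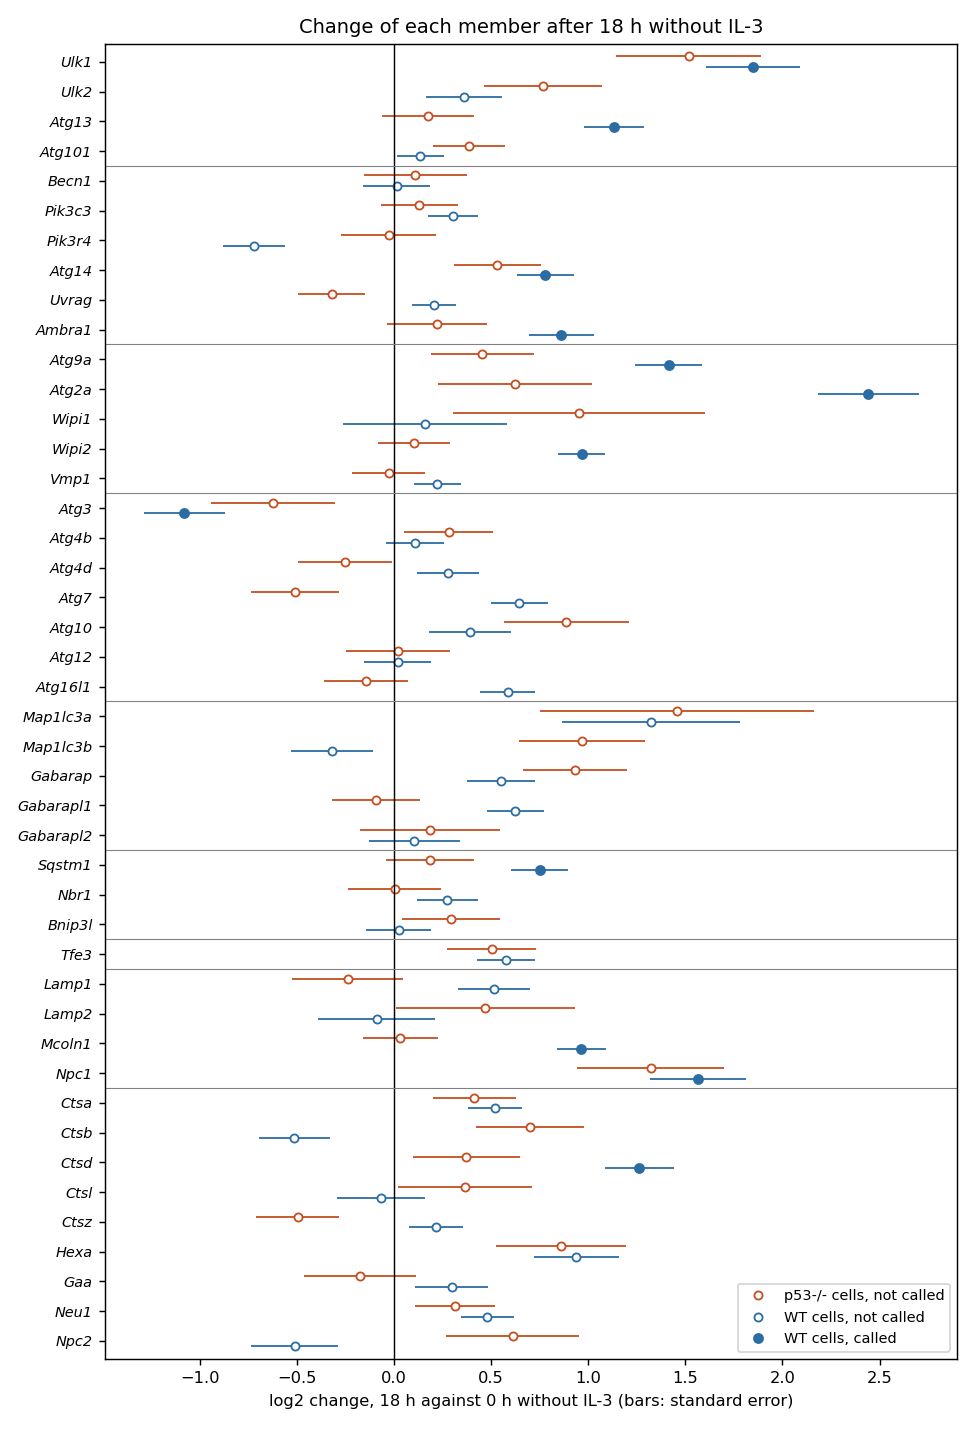
Fitted log2 change of each of the 44 genes between 18 h and 0 h without IL-3, with its standard error as a bar, for p53-/- cells (orange, above) and WT cells (blue, below). Filled points passed the call and open points did not, and genes are ordered by role. The 12 filled points are all WT, with Atg2a at 2.44 and Atg3 at -1.08 as the ends of their range.

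In p53-/- cells deprived of IL-3 for 18 h, 33 of the 44 changes were above 0 and none was called. The largest were those of Ulk1 (1.52), Map1lc3a (1.46) and Npc1 (1.32), given above. The 4 that passed by the adjusted p alone were all higher. They were Ulk1, Npc1, Gabarap and Map1lc3b. By their brightest probes, Ulk2 (0.88, standard error 0.213, adjusted p = 0.0204), Ctsb (0.77, 0.233, 0.0530) and Npc2 (0.72, 0.251, 0.0943) passed as well once the third array was left out. Without the third array the median change of the list was 0.30 at 18 h against 0 h and 0.24 at 18 h against 6 h, and 0 genes were called in either. With clone as a replicate block 3 genes were called, where 8.72% of all named genes were. They were Ulk1, Map1lc3a and Atg2a (0.97, standard error 0.197, adjusted p = 0.00322). At 18 h against 6 h the block gave 1 call, Wipi1, at 0.80 (0.17, 0.0107), where 3.96% of all named genes were called.

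Between the genotypes in IL-3, 6 of the 44 genes were called, or 13.6%, where 4.80% of all named genes were. Higher in p53-/- cells were 2 of them (2.13% of all named genes), Atg4d and Mcoln1, and lower were 4 (2.67% of all named genes), Map1lc3b, Npc2, Atg3 and Pik3r4. With median scaling, 0 were called higher and 5 lower, and neither of the higher ones passed. By the adjusted p alone 13 passed, where 20.5% of all named genes did, and with clone as a random replicate block 7 were called, where 5.03% were. The median difference of the list was 0.00, beside 0.04 over all named genes.

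Map1lc3b read 9.44, 9.38 and 8.45 in p53-/- cells and 10.88, 10.88 and 10.64 in WT cells, a difference of -1.77 (0.287, 0.00184), or 3.41-fold. The p53-/- arrays were also below all WT arrays at 6 h and at 18 h. The difference at 0 h was called without any 1 of the 18 arrays, and was lost without array weights (-1.71, adjusted p = 0.0694). Npc2 read 8.57, 8.81 and 8.38 in p53-/- cells and 10.36, 10.19 and 9.69 in WT cells, a difference of -1.55 (0.302, 0.00481). Atg3 read 8.91, 9.14 and 8.90 in p53-/- cells and 10.35, 10.46 and 9.62 in WT cells, a difference of -1.33 (0.281, 0.00735). For both genes the groups did not overlap, and the p53-/- clones lay within 0.5 of each other. Mcoln1 read 9.57, 9.48 and 9.36 in p53-/- cells and 8.79, 8.53 and 8.52 in WT cells, a difference of 0.91 (0.171, 0.00398). Atg4d, for a protease that processes ATG8 proteins, read 8.83, 8.92 and 9.23 in p53-/- cells and 7.80, 8.05 and 8.04 in WT cells, a difference of 0.98 (0.213, 0.00848), and all p53-/- arrays at 18 h were above all WT arrays at 18 h as well. A pair of dimmer Atg4d probes overlapped between the genotypes at 0 h and were not called, at 0.71 (0.24, 0.0635) and 0.11 (0.284, 0.85). Pik3r4 was undetected on the 3 p53-/- arrays at 0 h, where it read 5.08, 4.85 and 4.98, against 5.74, 6.03 and 5.89 in WT cells, so that it was at least 1.19-fold lower (adjusted p = 0.00797). Its log2 difference was -0.32 without background correction and -0.13 in the authors' values, and was then not called. These 5 calls each depended on single arrays. Pik3r4 and Atg4d were lost without any 1 of the 6 arrays at 0 h (-1.04 to -0.85, and 0.85 to 1.08). Atg3 was lost without any 1 of those arrays but the third WT array (-1.41 to -0.998). Npc2 was lost without the first or the second WT array (-1.35 and -1.44) or the first or the third p53-/- array (-1.54 and -1.44). Mcoln1 was lost with either the second or the third WT array left out (both 0.81), and likewise for the first or the second p53-/- array (0.86 and 0.90).

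Wipi1 showed a wide spread between p53-/- clones. It read 8.56, 8.22 and 5.61 in p53-/- cells and 9.82, 9.60 and 10.03 in WT cells at 0 h. The groups did not overlap, and the third p53-/- clone was the lowest of its genotype at all 3 times, with 5.61, 5.06 and 7.05. Its difference of -2.28 (0.572, 0.0176) missed the condition on B. It was called with clone as a random replicate block (-2.23, standard error 0.505, adjusted p = 0.00954), and both dimmer probes of the gene were called, at -2.52 (0.507, 0.00566) and -1.90 (0.414, 0.00863). Ulk2 and Ctsb were also lower in p53-/- cells on every array at 0 h without being called, at -1.16 (0.268, 0.0113) and -1.01 (0.245, 0.0148) by their brightest probes. The second Ctsb probe overlapped between the genotypes, at 0.09 (0.344, 0.902). The third Npc1 probe was undetected in p53-/- cells at 0 h and was then at least 2.97-fold lower than in WT cells (adjusted p = 0.00848), whereas the brightest differed by -0.53 (0.335, 0.333). At 6 h the third probe read 6.53, 6.34 and 7.22 in p53-/- cells. Single genes of the marker lists summed above are given as examples, and the rest of those lists is not given gene by gene. Differing between the genotypes at 0 h were the macrophage gene Adgre1, at -3.75 (0.627, 0.00217), the mast cell genes Cpa3, at -3.05 (0.609, 0.00548), and Fcer1a, at -2.33 (0.305, 0.000538), and the red cell gene Slc4a1, undetected in WT cells and with at least 8.12-fold more signal in p53-/- cells (adjusted p = 0.000382). The mast cell and basophil sums given above differed by smaller folds than Cpa3 and Fcer1a. These examples therefore do not stand for their whole lists. The part of the marker genes in the differences of the list was not tested.

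**Figure D5:**
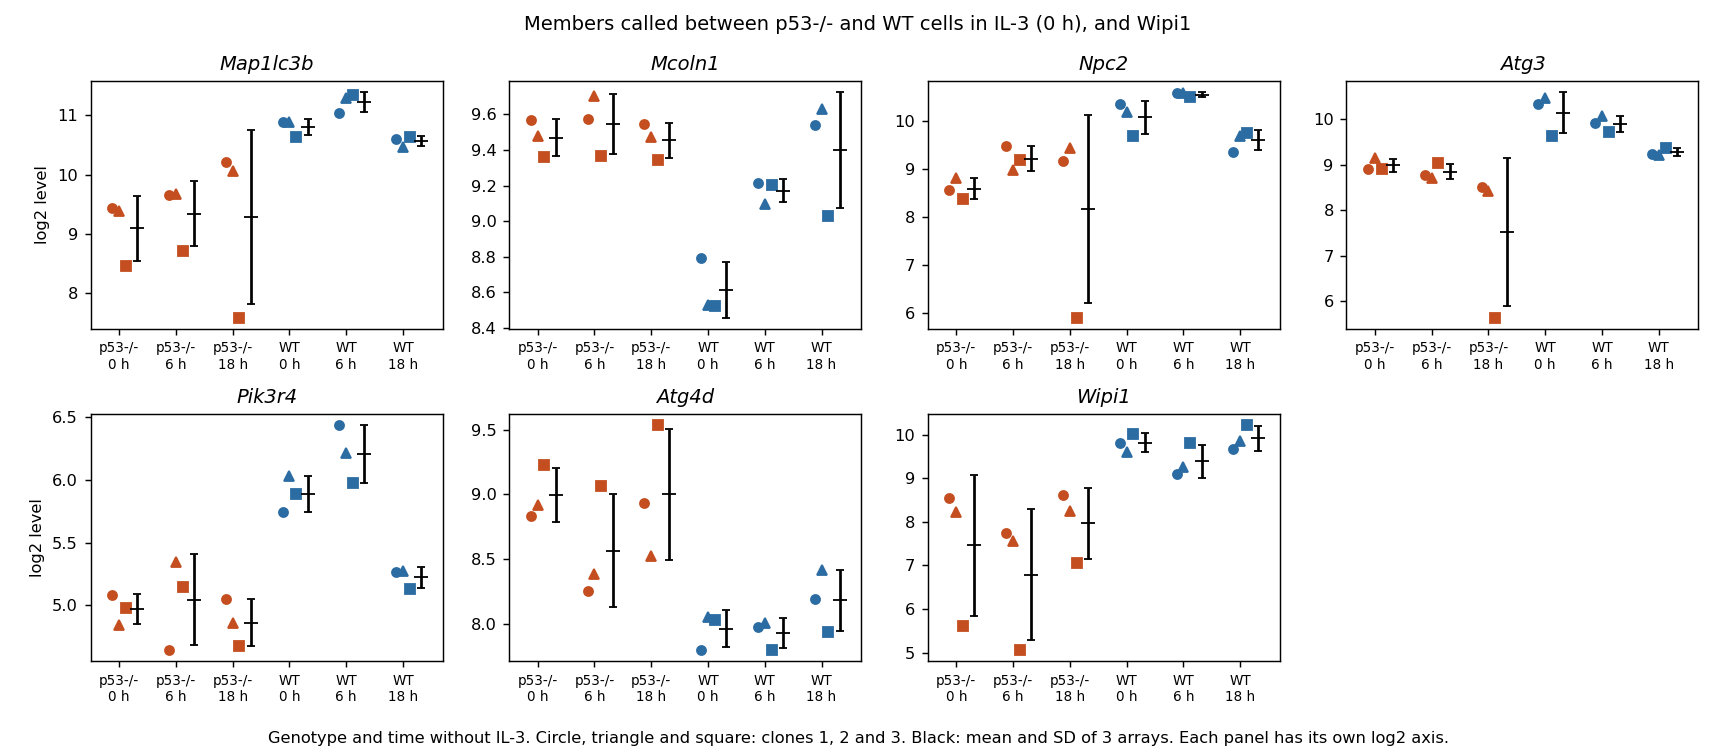
Log2 level on every array of the 6 genes called between p53-/- and WT cells at 0 h, and of Wipi1, with p53-/- cells (orange) left of WT cells (blue) and time from 0 to 18 h within each. Circles, triangles and squares are clones 1, 2 and 3, and black marks give the mean and SD of 3 arrays. At 0 h the genotypes do not overlap for any of the 7 genes, and Map1lc3b stays lower in p53-/- cells at all 3 times.

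Whether the change on IL-3 removal differed between the genotypes was tested directly. For the change to 6 h, 0 of the 44 genes were called, as were 0% of all named genes. With the replicate block it was also 0, where 1.58% of all named genes were called. At an unadjusted p under 0.05 there were 6 of the 44, or 13.6%, beside 9.27% of all named genes. For the change to 18 h, 0 were called, where 1.38% of all named genes were, with 16 of the 44, or 36.4%, at an unadjusted p under 0.05, beside 18.3% of all named genes. By the adjusted p alone 7 passed, 2 higher and 5 lower in p53-/- cells, where 5.58% of all named genes passed. The p53-/- change minus the WT change was below 0 for Atg2a (-1.82, standard error 0.474, adjusted p = 0.0551), Atg7 (-1.16, 0.272, 0.0418), Atg13 (-0.95, 0.283, 0.0844), Mcoln1 (-0.93, 0.231, 0.0483) and Wipi2 (-0.86, 0.222, 0.0521). Map1lc3b (1.29, 0.388, 0.0884) and Ctsb (1.21, 0.332, 0.0662) were above 0. With clone as a replicate block 3 were called, where 5.65% of all named genes were. They were Atg2a (-1.51, standard error 0.244, adjusted p = 0.00193), Atg7 (-1.24, 0.222, 0.00309) and Mcoln1 (-1.03, 0.223, 0.00774). Without the third p53-/- array at 18 h 1 gene was called, Ctsb, at 1.28 (0.276, 0.0258). The second Ctsb probe, with all arrays in the fit, gave 0.24 (0.466, 0.841). The median difference of the list was -0.17 at 18 h and -0.16 at 6 h, beside 0.03 and -0.04 over all named genes. With median scaling it was -0.08 at 18 h and 0.04 at 6 h, beside 0.02 and 0.10 over all named genes, so that the list lay below all genes under both scalings while its sign at 6 h changed. By the brightest probes, all 3 p53-/- clones were lower and all 3 WT clones higher than at 0 h for Ctsz, Gabarapl1, Mcoln1 and Vmp1 at 18 h (9.09%, beside 1.61% of all named genes) and for Uvrag and Wipi2 at 6 h (4.55%, beside 1.99%). In the p53-/- clones Mcoln1 changed by only -0.025, -0.008 and -0.016, Gabarapl1 by -0.05, -0.092 and -0.185, and Vmp1 by -0.032, -0.006 and -0.512. The last Vmp1 value is from the third p53-/- array at 18 h, which stood apart. Other probes of Ctsz, Vmp1 and Wipi2 did not show this pattern.

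Related genes outside the list were counted in 5 further lists. Of 20 detected other autophagy genes, 1 rose and 1 fell in p53-/- cells at 18 h, and 5 rose and 1 fell in WT cells, beside 3.92% of all named genes called in p53-/- cells and 18.2% in WT cells. Calcoco1, an ATG8-binding protein gene, was undetected at 0 h and at least 1.48-fold higher at 18 h in p53-/- cells (adjusted p = 0.00297, detected on 2 of 3 arrays) and at least 2.12-fold higher in WT cells. Atg9b, a relative of Atg9a, fell in both genotypes, by 1.59 in p53-/- cells (0.353, 0.0112) and by 2.47 in WT cells (0.23, 1.02e-06), while Atg9a rose in WT cells. Tecpr1, for an autophagosome-lysosome tether, rose by 1.61 (0.216, 2.7e-05) and Trp53inp2, for a nuclear protein that binds ATG8 proteins, by 1.53 (0.21, 3.3e-05) in WT cells at 18 h. Of 40 detected other lysosomal genes, 1 rose in p53-/- cells at 18 h, and 8 rose and 2 fell in WT cells, or 2.5% in p53-/- cells and 25% in WT cells, beside 3.92% and 18.2% of all named genes. At 6 h 2 rose in p53-/- cells, Fuca1, for a fucosidase, by 1.46 (0.299, 0.018) and Ctns, and in WT cells Ctns rose and Ctsc fell, where 1.65% of all named genes were called in p53-/- cells and 6.91% in WT cells. At 18 h Ctns, for the cystine exporter, was higher than at 0 h in both, by 1.02 in p53-/- cells (0.168, 0.00196) and by 0.91 in WT cells (0.11, 9.44e-06). Idua, for iduronidase, rose in WT cells at 18 h by 1.21, and Ctsc and Gusb, for cathepsin C and glucuronidase, fell there by 1.39 and 1.35. At 0 h 3 of these 40 genes were lower in p53-/- cells and 0 higher, or 7.5%, where 4.80% of all named genes were called. They were Ctsh, undetected there and at least 1.36-fold lower (adjusted p = 0.00304), Sgsh (-1.34, adjusted p = 0.00398) and Gnptab (-1.26, adjusted p = 0.00487).

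Of 13 detected subunits of the V-ATPase, the proton pump of the lysosome, 0 were called at 18 h in either genotype, beside 3.92% of all named genes in p53-/- cells and 18.2% in WT cells. Atp6v1d alone was called at 6 h, in WT cells (0.59, 0.121, 0.00326), or 7.69%, beside 6.91% of all named genes. Of 21 detected genes around AMPK and mTORC1, the kinases that switch ULK1 on and off, 2 rose in p53-/- cells at 18 h (9.52%, beside 3.92% of all named genes) and 4 in WT cells (19.0%, beside 18.2%), with 0 lower. Rptor, the mTORC1 scaffold, read 9.06, 9.12 and 9.16 at 0 h, 9.80, 9.80 and 9.63 at 6 h and 10.09, 10.10 and 10.51 at 18 h in p53-/- cells, and 9.31, 9.54 and 9.94 at 0 h, 10.39, 10.40 and 10.55 at 6 h and 10.72, 10.50 and 10.08 at 18 h in WT cells. Its change at 18 h was 1.00 in p53-/- cells (0.207, 0.00798) and 0.93 in WT cells (0.135, 5.3e-05), without overlap in either genotype. Flcn, for folliculin, a regulator of the Rag GTPases at the lysosome, rose by 0.96 in p53-/- cells (0.205, 0.00931) and 0.79 in WT cells (0.134, 0.00021). Its partner Fnip1 rose in WT cells by 1.77, and Akt1s1, for an mTORC1 inhibitor, by 0.84. Prkag2, for an AMPK subunit, was lower in p53-/- cells at 0 h (-1.74, 0.317, 0.00341). Of 9 detected autophagy genes linked to p53, 1 rose in p53-/- cells at 18 h (11.1%, beside 3.92% of all named genes called) and 2 in WT cells (22.2%, beside 18.2%). At 6 h 2 rose in WT cells (22.2%, beside 6.91%). Trp53inp1, whose product binds ATG8 proteins, was called over time in both genotypes and was lower in p53-/- cells at 0 h (-1.995, standard error 0.215, adjusted p = 0.000162). Its change at 18 h was 2.08 in p53-/- cells (0.244, 0.000202) and 1.42 in WT cells (standard error 0.159).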

How the data were processed

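RNA from WT and p53-/- FDM cells had been labelled and hybridized to 18 Illumina MouseWG-6 V1 arrays. Each intensity was deposited by the authors as a per-probe bead average without normalization across arrays. The fraction deposited beside each is a detection score that equals 1 minus the detection p-value. A table of log2 values that the authors made with the lumi package was used only as an alternative. Symbols came from the array annotation, updated through RefSeq gene IDs (GRCm38.p6), with 29976 probes carrying 1 symbol, 10 several and 16646 none.

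Background was corrected by normexp from the detection p-values with an offset of 16, followed by quantile normalization and log2, in limma 3.58.1 (R 4.3.3). The 21413 probes detected (p under 0.01) on 1 or more arrays entered the fit. Weights from arrayWeights entered 1 linear model of 6 groups on all 18 arrays, with eBayes and Benjamini-Hochberg adjustment over all probes kept. The order of steps followed the study's methods, which name normexp by control probes. The call rule (adjusted p at most 0.1 and B above 0) is the one the study stated for the genotypes in IL-3. For IL-3 withdrawal the study sorted genes by t-statistics from a linear model, without restating that rule. Here it was used in all 9 comparisons. The model had no clone term. The 9 comparisons were the 3 pairs of times within each genotype, the genotypes at 0 h, and the differences between genotypes in the change to 6 h and to 18 h. The model fit was first run on simulated log2 levels, with independent noise on each array and known changes between the genotypes at 0 h. With 3 arrays against 3, an exact permutation test of 1 gene cannot give a p below 0.1, so none was used. The number of arrays limits the precision. P-values measure the spread between clones.

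The labels give replicate numbers and do not name clones. Arrays of one number and genotype were taken here as one clone, and arrays of different numbers within a genotype were not correlated for comparison. Deviations from the group means correlated between arrays of the same number and genotype, with r from 0.276 to 0.756 over 18 pairs, and between the genotypes r was -0.0417 to 0.0336 over 9 pairs.

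The genes and further lists were chosen with earlier results of these data known. Every gene called in any comparison is described by array, with a fixed few whose role needs mention, and up to 4 genes of each further list. Where a dim group was undetected on all its arrays, a fold is a lower bound, the mean of the brighter group over the higher of the dim probe's own signal and the lowest signal of detected probes. Slide was not given in the sources used here and was not modelled. Alternatives were no background correction, median scaling, the authors' values, no detection filter, no weights, only the arrays compared, the adjusted p alone, any probe of a gene, clone as a replicate block, and each array left out.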

Additional observations from a re-analysis of the deposited data

How the results depend on the processing

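Of 26 called gene results, 155 of 208 comparisons with another setting kept the call, 53 lost it and 0 changed direction. Of 468 fits without 1 array, 377 kept it, 91 lost it and 0 changed direction. Ulk1, Atg9a and Atg2a at 18 h against 0 h in WT cells kept their calls in all of these. The cause of the losses was not tested.

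In p53-/- cells the count of 0 became 2 by the adjusted p alone and 1 with the replicate block at 6 h, 1 at 18 h against 6 h without background correction, with the authors' values, by the adjusted p alone and with the block, and at 18 h against 0 h 2 with median scaling, 1 without the filter or weights, 4 by the adjusted p alone and 3 with the block. Without 1 array these were 0, 0 and 0 to 1. The 12 genes called in WT cells at 18 h against 0 h became 7 with median scaling, 5 without array weights and 26 by the adjusted p alone, and 4 to 14 without 1 array, with 4 without the second and 7 without the first WT array at 18 h and 5 without the second at 0 h. The 4 at 6 h became 0 with median scaling or without weights, 1 without the detection filter, 2 with only the arrays compared and 14 by the adjusted p alone, and 0 to 6 without 1 array, with 0 or 1 without any 1 of the 6 WT arrays at 0 and 6 h. The 4 at 18 h against 6 h became 8 without background correction and with the authors' values, 2 without weights, 20 by the adjusted p alone and 7 with the replicate block, and 0 to 6 without 1 array, with 0 without the second and 2 without the first WT array at 18 h and 1 without the first at 6 h. The 6 genes between genotypes at 0 h became 2 without weights, 3 with only the arrays compared and 13 by the adjusted p alone, and 1 to 8 without 1 array, with 2 without any 1 p53-/- array at 0 h and 2 without the first, 1 without the second or 3 without the third WT array at 0 h. The genotype difference at 18 h went to 3 without background correction, with the authors' values and with the block, 1 with median scaling and 7 by the adjusted p alone, and 0 to 1 without 1 array. At 6 h it was 0 throughout.

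With median scaling the median over all named genes shifted by -0.13 for p53-/- cells at 18 h against 6 h and by 0.14 for the genotype difference at 6 h. Among the 44 genes, 11 changed sign for WT cells at 6 h and 6 at 18 h against 0 h, none of them called. Pik3r4, Gabarapl2 and Ctsl lay near background on most arrays, which limits their values.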
